A study of Mus musculus with 10 samples.

Results

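The baseline transcriptome of the left ventricle, the chamber that pumps blood into the body, was described in 5 sham-operated mice. Members were the entries of the deposited gene table with a mean of at least 1 FPKM over these 5 mice, which kept 11593 of 23303 entries. FPKM is the number of sequenced fragments of a gene, divided by the length of its transcript and by how many fragments of that library were mapped, so levels of different genes can be compared with each other. All 5 mice were males of the 129X1/SvJ strain, an inbred line, and had the surgery label Sham with no other agent or allele named. The series set them beside 5 CKD (chronic kidney disease) mice, which are not analysed here. The age of the mice, the time from surgery to tissue collection and the hour of collection are not given in the sources used here. The design text calls the 5 mice normal, although each carries a surgery label. The mice are numbered Sham 1 to Sham 5 only to name them, and every mean below is given ± SD over these 5 mice (n = 5).

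The ventricular wall is built mainly of cardiomyocytes, large muscle cells packed with contractile filaments and mitochondria, with capillary endothelium, fibroblasts, pericytes, smooth muscle and resident macrophages between them. Heart muscle makes most of its ATP by oxidative phosphorylation, chiefly from fatty acids and also from glucose, lactate and ketone bodies. Many proteins of this tissue are encoded by families of related genes, called paralogues, of which 1 member is used mainly in heart or striated muscle and another in most other tissues. In bulk tissue, fewer cells of a type and less RNA per cell cannot be told apart.

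The FPKM of a library summed to between 579186 in Sham 1 and 605007 in Sham 2, and between 15467 and 15658 entries had a value above 0. Counts of reads are unknown, but low values show what 1 read is worth. Among entries of at most 0.2 FPKM in both libraries, 29.2% to 30.4% shared 1 ratio to Sham 2 within 0.5%, and this ratio put the depth of Sham 3, Sham 4 and Sham 5 at 1.03, 1.01 and 0.906 times that of Sham 2. Sham 1 had no such common step: its most frequent ratio was shared by 23 of 1098 entries (2.09%), so no relative depth is given for it. Sham 1 stood apart from the other 4 libraries in several results, which are given with and without it. Log2 values of members correlated between mice at Pearson's r of 0.98 to 0.99 across genes, which are not independent replicates.

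Of all entries, 6215 were listed at 0 in all 5 mice and 5495 lay above 0 but under the threshold. Myh6, the main myosin heavy chain of the adult mouse heart, and Atp2a2, the calcium pump of the cardiac sarcoplasmic reticulum, were both listed at 0 in all mice. Among 261 entries of ribosomal proteins, the proteasome, the respiratory chain, the vacuolar proton pump and tubulins, 8 were at 0, all of them paralogues with tissue-restricted use, such as Psmb11 of the thymic proteasome and Cox8c and Rpl10l of testis. Both Myh6 and Atp2a2 are known, as background, to be abundant in adult mouse heart, so their listed 0 is not read here as absence and their values are not used. Just inside the threshold lay Pbld2, 2010001M06Rik and Fut10 at 1.003, 1.002 and 1.002 FPKM, and just outside it Zfp94, Smc2 and Plekha4 at 0.99999, 0.999 and 0.997 FPKM. Gene-named entries made up 10843 of the members. The other 750 were clone or model names, small RNA entries (31) and joined entries, where a single value stands for several adjoining or nearly identical genes (140). Cpt1b, the muscle carnitine palmitoyltransferase, occurs only in a joined entry and has no value of its own. Genes encoded by the mitochondrial genome are not analysed here.

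A small set of genes carried much of the signal. The 10 most abundant entries held 17.3% ± 1.16 of the summed FPKM, the first 100 held 41.6% ± 0.8096 and the first 1000 held 73.7% ± 0.478. Adding entries from the top of the list, 180 were enough to reach 50% of the summed FPKM. There were 75 members of at least 1000 FPKM, 775 of at least 100 FPKM and 5779 of at least 10 FPKM, and 1161 lay under 2 FPKM. The share of the first 10 was 15.3% in Sham 1 and 17.5% to 18.2% in the other 4 mice.

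Contractile proteins led the ranks. Myl2, the ventricular regulatory light chain of myosin, was the most abundant entry at 17538, 21440.5, 22199, 21164 and 20713 FPKM in Sham 1 to Sham 5. Mb, the oxygen-binding protein myoglobin, followed at 14255, 17752, 17994, 17367 and 16876 FPKM. The lowest of the 5 values was Sham 1 for both, and the ranges of these genes over the mice overlapped. Actc1, cardiac alpha-actin, the backbone of the thin filament, ranked 3 at 12543, 11173, 11709, 10338 and 11500.2 FPKM, below Myl2 and Mb in each mouse and, unlike them, highest in Sham 1. In GRCm38, the assembly that mm10 denotes, Myl2 lies on chromosome 5 from 122092724 to 122113473, Mb on chromosome 15 from 77015487 to 77050668 and Actc1 on chromosome 2 from 114047282 to 114052875.

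Next came the regulators of the thin filament. Tpm1, the tropomyosin that lies along actin, was at 7218, 11039.5, 11503, 10636 and 11368 FPKM in Sham 1 to Sham 5. Tnnt2, cardiac troponin T, was at 6222, 10257, 11311, 10626 and 10879 FPKM. Tnni3, cardiac troponin I, was at 5951, 8606, 8129.7, 7751 and 7887 FPKM. In each of these 3 genes Sham 1 was lowest. Tnnc1, the calcium-binding troponin C, was at 6354 ± 441 FPKM and Myl3, the ventricular essential light chain, at 7993 ± 661 FPKM. Without Sham 1, the mean of Tnnt2 was 10768 FPKM, against 9859 FPKM with all 5 mice.

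The other entries among the first 20, apart from Tcap, belonged to energy supply and calcium handling. Slc25a4, the heart and muscle ADP/ATP carrier of the inner mitochondrial membrane, was at 6364 ± 311 FPKM. Pln, phospholamban, the small protein that restrains the calcium pump, was at 5382, 4117, 4471, 4804 and 4194 FPKM, highest in Sham 1. Subunits of ATP synthase held 4 places (Atp5b at 4354 ± 146, Atp5k at 4247 ± 466, Atp5g3 at 3365 ± 230.1 and Atp5a1 at 2953 ± 145 FPKM). Cytochrome c oxidase, the last complex of the respiratory chain, also held 4 (Cox7a1 at 3959.7 ± 209, Cox6a2 at 3364 ± 209.6, Cox4i1 at 3045 ± 132 and Cox8b at 3006 ± 163 FPKM). Fabp3, the heart fatty acid binding protein, was at 3318 ± 291 FPKM.

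Tcap, telethonin, which caps titin at the Z-disc, was the least even of the first 20 between mice, at 3557, 4159, 2463, 2193 and 3726 FPKM in Sham 1 to Sham 5. Sham 3 and Sham 4 were its 2 lowest mice. The order within the first 20 is only partly fixed by these mice: of 19 neighbours in rank, 3 had ranges that did not overlap (Mb over Actc1, Tnnc1 over Pln, and Cox7a1 over Atp5g3). Membership was steadier than order: 18 of the first 20 places and 90 of the first 100 were held by entries that ranked there in every mouse.

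**Figure D1:**
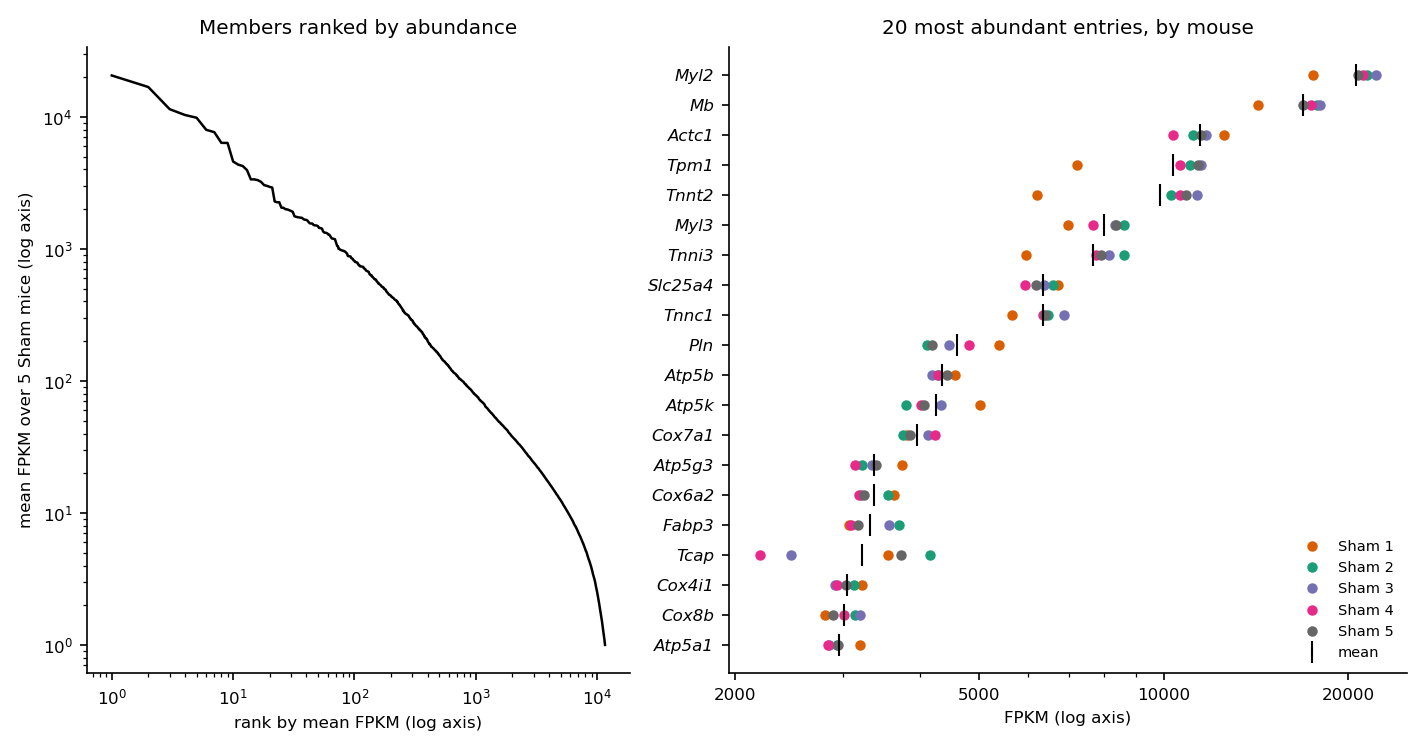
Left, mean FPKM of the 11593 members (vertical log axis) against rank (horizontal log axis). Right, FPKM of the 20 most abundant entries on a log axis, 1 coloured point per Sham mouse and a black bar at the mean of 5; Sham 1 lies below the other mice for Tpm1, Tnnt2 and Tnni3.

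By function, nuclear genes of oxidative phosphorylation took 15.8% ± 0.538 of the summed FPKM (84 members) and proteins of the thick and thin filaments 12.99% ± 1.0997 (15 members). Cytosolic ribosomal proteins took 4.97% ± 0.1499 (75 members). Uptake and beta-oxidation of fatty acids took 2.705% ± 0.0475 with 22 members, glucose uptake and glycolysis 1.71% ± 0.0403 with 19, and the citric acid cycle 1.31% ± 0.05001 with 13. The 2 leading groups went opposite ways in Sham 1, where oxidative phosphorylation was at 16.7% and the filaments at 11.1%. In the other 4 mice they ranged from 15.4% to 15.7% and from 13.2% to 13.8%. The share of the filaments lacks Myh6, which was listed at 0. Per gene, the median member of complex III stood at 1253 FPKM, of complex IV at 1437, of ATP synthase at 1328, of complex II at 677 and of complex I at 633 FPKM.

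Paralogue choice was examined in 76 pairs of related genes, each written with the partner known from heart or muscle first. A ratio could be formed for 68; 5 had a partner listed at 0 and 3 a partner found only in a joined entry. The first partner was higher with no overlap over the 5 mice in 63 pairs, the second in 1, and ranges overlapped in 4. Lack of overlap is common between genes: it held for 86.8% of all pairs of members, and for 53 of the 57 listed pairs with both partners among the members, so this count alone says little. A distance over 10-fold held for 22.5% of all pairs of members and for 26 of these 57. With 5 mice the exact two-sided sign-flip permutation test cannot go below p = 0.0625, before or after Benjamini-Hochberg adjustment over the 68 pairs, and every pair tested reached that smallest value, in 1 direction or the other. Sizes and ranges over the mice are therefore given in place of p-values. The pairs were chosen with knowledge of these data, and the direction is a description.

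**Figure D2:**
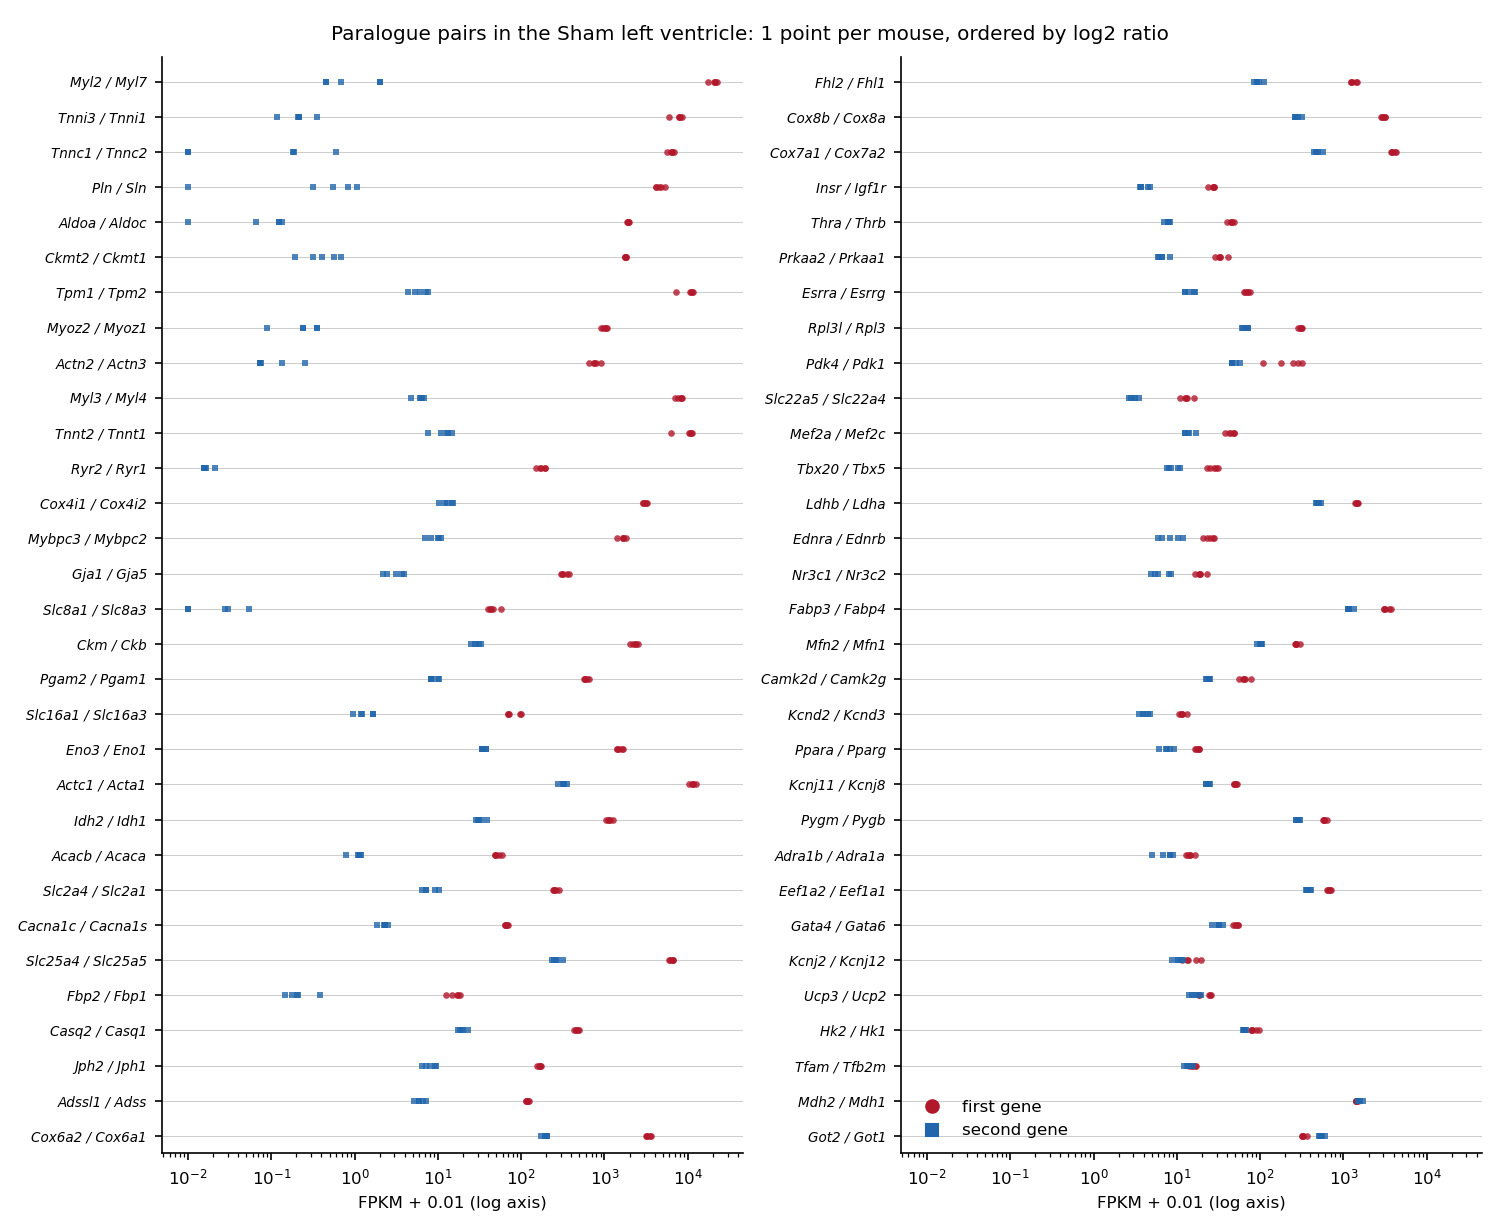
FPKM of both genes of 62 of the paralogue pairs (horizontal log axis, 0.01 added so that values of 0 can be drawn), 1 point per Sham mouse, ordered by mean log2 ratio. The partners lie orders of magnitude apart for several filament genes at the upper left (first gene red, second gene blue), and close to each other or in the other order at the lower right, where Mdh1 and Got1 are above Mdh2 and Got2.

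In the sarcomere the first partner was above its counterpart, mostly an atrial, skeletal or fetal form, in all 11 pairs with a ratio. The median log2 ratio was 10.29 on the log2(FPKM + 0.5) scale, which understates ratios to genes near 0. Myl7, the atrial regulatory light chain, was at 2.03, 0.676, 0.438, 0.444 and 1.99 FPKM, 4 orders of magnitude under Myl2. Myl4, the atrial essential light chain, was at 6.04 ± 0.815 FPKM, Tnni1, the slow skeletal and fetal troponin I, at 0.211 ± 0.0837, and Tnnt1, slow skeletal troponin T, at 11.9 ± 2.79 FPKM. The fast skeletal Tnnc2 and Actn3 were at 0.187 ± 0.2401 and 0.112 ± 0.0792 FPKM, against 765 ± 92.6 FPKM of Actn2, the alpha-actinin of the cardiac Z-disc. Tpm2, beta-tropomyosin, was at 6.07 ± 1.31 FPKM, and Mybpc2, the fast skeletal myosin binding protein C, at 9.27 ± 1.58 FPKM beside 1640.4 ± 149 FPKM of the cardiac Mybpc3. Myoz2, the cardiac calsarcin, was at 1002 ± 64.5 FPKM and Myoz1, its fast skeletal counterpart, at 0.246 ± 0.1098 FPKM.

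Skeletal alpha-actin was the exception in level among these partners. Acta1, used in skeletal muscle and the fetal heart, was at 321 ± 26.99 FPKM, 35.7 times lower than Actc1 but higher than cytoplasmic Actb (207 ± 41.6 FPKM). Actc1 took 94.4% ± 0.389 of the FPKM of the 6 actin genes. Among myosin heavy chains with a value, Myh7, the slow beta isoform, was highest at 237, 423, 332, 333 and 376 FPKM, and Myh7b followed at 57.6 ± 15.4 FPKM, but no share can be given because Myh6 was listed at 0. Myh7 was lowest in Sham 1 and highest in Sham 2. The fast skeletal heavy chains Myh1, Myh2 and Myh4 were at 0.0111, 0.009299 and 0.002297 FPKM. Of the LIM proteins, Fhl2 was at 1327 ± 110.2 FPKM and Fhl1 at 95.03 ± 9.8998. Among the giant and M-band proteins, Myom2, myomesin 2, was at 483 ± 66.5 FPKM, Myom1 at 311 ± 21.3, Nrap at 232 ± 29.8 and Ttn, titin, the molecular spring, at 89.8 ± 10.6 FPKM.

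Calcium handling followed the same division, with the cardiac gene higher in all 6 pairs. Ryr2, the calcium release channel of the sarcoplasmic reticulum, was at 193, 195, 169, 173 and 151 FPKM and took 92.8% ± 0.504 of the FPKM of the ryanodine and IP3 receptors. It was highest in Sham 2 and lowest in Sham 5. Itpr1 was next at 6.27 ± 1.23 FPKM, and the skeletal Ryr1 was at 0.00696 FPKM. Casq2, cardiac calsequestrin, was 23.6-fold above Casq1 (465 ± 27.1 and 19.7 ± 2.16 FPKM), with 21.2 to 26.5-fold over the mice. Cacna1c, the pore of the cardiac L-type calcium channel, was at 65.8 ± 2.43 FPKM and the skeletal Cacna1s at 2.24 ± 0.229. Jph2, which holds the sarcoplasmic reticulum against the plasma membrane, was at 164 ± 7.61 FPKM and Jph1 at 8.07 ± 1.296. Sln, sarcolipin, the atrial counterpart of Pln, was at 1.05, 0, 0.537, 0.818 and 0.305 FPKM. Camk2d, the main cardiac calmodulin kinase II, was only 2.74-fold above Camk2g (65.4 ± 7.78 and 23.8 ± 1.12 FPKM).

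In the mitochondrion, muscle forms of 3 small cytochrome c oxidase subunits were well above the forms used elsewhere. Cox6a2 was 17.4-fold above Cox6a1 (16.1 to 18.4-fold over the mice), Cox8b 10.8-fold above Cox8a (9.7999 to 12.2-fold) and Cox7a1 8.07-fold above Cox7a2 (6.78 to 9.002-fold). The counterparts were still abundant, with Cox7a2 at 491 ± 44.3, Cox8a at 278 ± 25.2 and Cox6a1 at 194 ± 11.9 FPKM. Cox4i2, an alternative subunit linked to low oxygen, was at 13.02 ± 2.004 FPKM beside Cox4i1 at 3045. Slc25a5, the ADP/ATP carrier of proliferating cells, was at 267 ± 31.02 FPKM, 23.9-fold under Slc25a4, and the phosphate carrier Slc25a3 was at 1186 ± 87.4. Ckmt2, the sarcomeric mitochondrial creatine kinase, was among the steadiest genes of all at 1752, 1757, 1788, 1793 and 1762 FPKM, and the ubiquitous Ckmt1 was at 0.423 ± 0.199. Mfn2 was 2.74-fold above Mfn1, both of which fuse outer membranes.

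Other mitochondrial pairs lay close together. Ucp3, the muscle uncoupling protein, was at 18.7, 25.9, 24.03, 24.8 and 18.2 FPKM and Ucp2 at 16.3, 19.6, 15.3, 13.9 and 17.7 FPKM, and although Ucp3 was higher within each mouse, the ranges overlapped. Tfam and Tfb2m, which drive transcription of the mitochondrial genome, were at 15.6 ± 1.27 and 13.7 ± 1.27 FPKM with overlapping ranges. Ucp1, the uncoupling protein of brown fat, was at 0.0119 FPKM.

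Enzymes of glucose use were mostly the muscle genes. Glut4, encoded by Slc2a4 and moved to the surface by insulin, was at 288, 263, 245, 247 and 244 FPKM in Sham 1 to Sham 5. Slc2a1, which encodes the basal transporter Glut1, was at 9.25, 10.2, 6.41, 7.11 and 7.28 FPKM. Sham 1 and Sham 2 were the 2 highest for both, and the 2 genes did not overlap. Slc2a4 took 90.6% ± 0.573 of the FPKM of the 12 glucose transporter genes, with Slc2a8 next at 10.6 ± 1.303 FPKM. Aldoa, aldolase A, was at 1912 ± 30.3 FPKM and Aldoc at 0.0817, Eno3, beta-enolase, at 1519 ± 113 beside 35.4 ± 1.84 of Eno1, and Pgam2 at 599 ± 31.8 beside 9.02 ± 1.04 of Pgam1. Pfkm, the muscle phosphofructokinase, took 88.97% ± 0.633 of its family. Pygm, muscle glycogen phosphorylase, was 2.08-fold above the brain form Pygb (2.005 to 2.16-fold over the mice). Fbp2, the muscle fructose bisphosphatase, was at 16.1 ± 2.35 FPKM and the liver form Fbp1 at 0.213 ± 0.0917.

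Hexokinases trap glucose in the cell. Hk2, the insulin-responsive muscle form, was at 89.3, 97.4, 79.6, 80.7 and 77.4 FPKM and Hk1 at 63.5, 67.3, 63.9, 62.1 and 65.6 FPKM. The 2 genes did not overlap. Ldhb, the heart form of lactate dehydrogenase, was at 1441 ± 34.4 FPKM and Ldha at 499 ± 27.2, a ratio of 2.65 to 3.11 over the mice. Ckm, the cytosolic muscle creatine kinase, was 79.1-fold above Ckb.

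The kinases that switch off pyruvate dehydrogenase differed in evenness as well as level. Pdk2 was at 258, 248, 241, 247 and 274 FPKM and Pdk4, the fasting-responsive form, at 107, 249, 321, 288 and 178 FPKM. The highest mouse was 1.14 times the lowest for Pdk2 and 2.99 times for Pdk4, which was highest in Sham 3, and the ranges of the 2 genes overlapped. Pdk1 was at 49.2 ± 4.97 and Pdk3 at 1.24 ± 0.373 FPKM. The bifunctional enzymes that set fructose 2,6-bisphosphate were led by Pfkfb2, the heart form, at 37.99 ± 7.47 FPKM, and Pfkfb1, known from liver and muscle, at 17.7 ± 4.62.

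Most steps of fatty acid use had 1 leading gene. Lpl, the lipase that frees fatty acids from lipoproteins at the capillary wall, was at 1731 ± 109 FPKM. Cd36, which carries fatty acids into the cell, was at 763 ± 102 FPKM and Slc27a1 at 96.2 ± 11.2. Acsl1, which activates long-chain fatty acids, took 94.9% ± 0.221 of the synthetases with a value of their own, and Acot13 took 82.6% ± 1.31 of the acyl-CoA thioesterases. Cpt2 was at 153 ± 8.25 FPKM and the liver form Cpt1a at 17.9 ± 0.906. The acyl-CoA dehydrogenases of medium, long and very long chains, Acadm, Acadl and Acadvl, were at 1002 ± 20.7, 882 ± 30.8 and 676 ± 24.8 FPKM. Acacb, the acetyl-CoA carboxylase whose product holds back entry of fatty acids into mitochondria, was at 52.02 ± 4.72 FPKM and the lipogenic Acaca at 1.07 ± 0.162, 48.6-fold lower. Among lipid droplet proteins Plin3 was at 118 ± 5.39, Plin5 at 81.995 ± 7.49, Plin4 at 53.5 ± 7.93 and Plin2 at 30.5 ± 0.691 FPKM.

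In 2 pairs of the malate-aspartate shuttle, which moves reducing power into mitochondria, the cytosolic gene was the higher one. Got1, the cytosolic aspartate aminotransferase, was at 607, 517, 546, 508 and 531 FPKM and the mitochondrial Got2 at 330.1, 319.6, 321, 328 and 364 FPKM. Got1 was above Got2 with no overlap. Mdh1, cytosolic malate dehydrogenase, was at 1734, 1476, 1589.9, 1504 and 1505 FPKM and Mdh2 at 1397, 1401, 1419, 1401 and 1505 FPKM, with overlapping ranges, although Mdh1 was the higher in each mouse, in Sham 5 by less than 1 FPKM. Among isocitrate dehydrogenases the mitochondrial gene was far above, with Idh2 at 1141 ± 86.2 against Idh1 at 32.2 ± 3.75 FPKM. Adssl1, the muscle adenylosuccinate synthase, was at 118 ± 4.69 FPKM and Adss at 6.18 ± 0.763. Of the energy sensor AMP-activated kinase, Prkaa2 was 5.02-fold above Prkaa1, and the highest subunit was Prkag1 at 93.01 ± 1.78 FPKM.

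Translation had 2 muscle paralogues. Rpl3l, the ribosomal protein that takes the place of Rpl3 in striated muscle, was at 285, 312, 319, 302 and 307 FPKM and Rpl3 at 61.95, 71.6, 61.4, 66.99 and 71.5 FPKM. Eef1a2, the elongation factor of muscle and neurons, was at 670.5 ± 30.3 FPKM and Eef1a1 at 378 ± 21.4. The muscle gene was higher with no overlap in both pairs, by 4.57-fold and 1.77-fold. Genes of the elongation factor and ribosomal protein families have many near-identical copies, and the sources used here do not say how reads shared between copies were assigned.

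Enzymes that remove peroxides and other reactive molecules were abundant. Among peroxiredoxins, Prdx5, found in mitochondria and peroxisomes, was at 589 ± 28.98 FPKM, Prdx2 of the cytosol at 530.4 ± 9.25 and Prdx3 of the mitochondrion at 314 ± 35.4 FPKM. Sod1, the cytosolic superoxide dismutase, was at 523 ± 27.9 FPKM and the mitochondrial Sod2 at 199 ± 38.7. Mgst3, a microsomal glutathione transferase, was at 435 ± 39.5 FPKM and Gstm1 at 189 ± 13.9, of a family with near-identical members. Aldh2, the mitochondrial enzyme that oxidises acetaldehyde and lipid aldehydes, was at 154 ± 15.9 FPKM and Aldh6a1 of valine breakdown at 130.0 ± 13.3, with overlapping ranges.

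**Figure D3:**
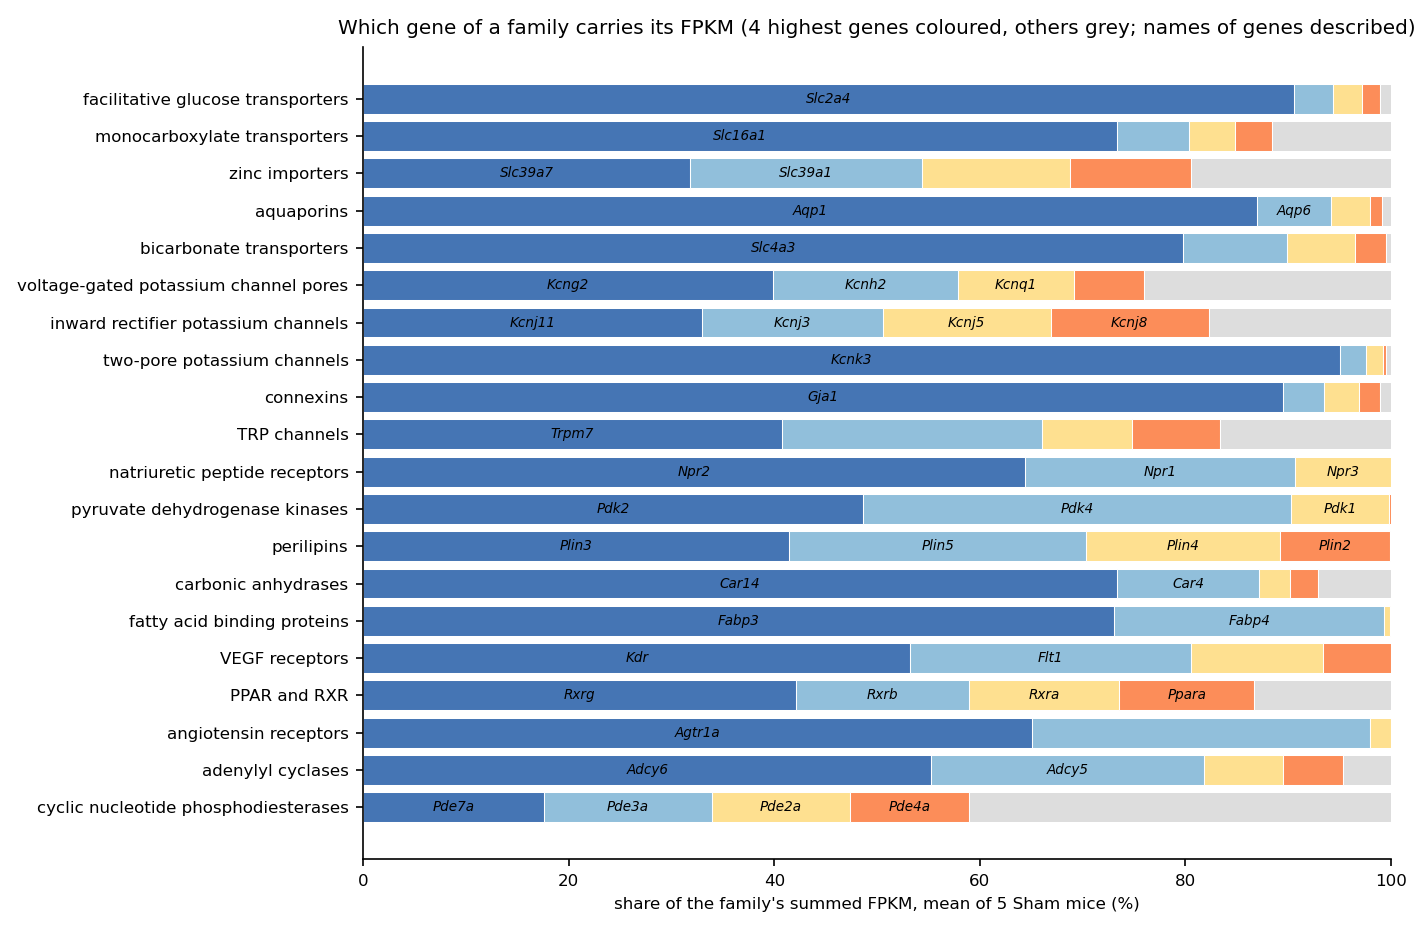
Share of the summed FPKM of 20 gene families by gene, as the mean of 5 Sham mice (horizontal axis from 0 to 100%), with the 4 highest genes coloured and the others grey. Slc2a4, Kcnk3, Gja1 and Aqp1 fill most of their families, while perilipins, zinc importers and phosphodiesterases are divided among several genes.

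Over 109 families with at least 2 genes in the table, the highest gene took over 50% of the summed FPKM in 64 and over 90% in 12. Without the 3 families that hold Myh6, Atp2a2 or Cpt1b, whose values are not used, these counts were 61 and 12 of 106. The highest gene was picked by its values, and in a family of 2 genes 1 must take at least 50%. The counts over 50% and 90% are therefore a description. The 64 take in the neuregulins, none of which was a member. The 2 highest genes had ranges that overlapped over the mice in 20 of the 109 families and did not in 89. Of all pairs of members, 86.8% did not overlap, so this count alone says little. The families hold 908 genes in the table, of which 630 are members.

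Surface transporters set the ion and fuel gradients of the muscle cell. Atp1b1, the main beta subunit of the sodium pump, was at 133 ± 16.8 FPKM. Fxyd1, phospholemman, the regulator of the cardiac pump, was at 681 ± 22.8 FPKM and took 94.04% ± 0.3998 of its family. Slc8a1, the cardiac sodium-calcium exchanger, was at 45.5 ± 6.59 FPKM, and the neuronal and skeletal Slc8a3 at 0.0164. Slc16a1, which moves lactate, was at 98.9, 96.7, 70.2, 70.2 and 72.3 FPKM and Slc16a3, the exporter of glycolytic muscle, at 1.23, 1.64, 1.64, 1.18 and 0.951 FPKM. The 2 genes did not overlap, and Sham 1 and Sham 2 were the highest for Slc16a1. Slc22a5, the carnitine transporter, was 4.29-fold above Slc22a4 (13.1 ± 1.93 and 3.04 ± 0.346 FPKM).

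Families of acid and water transport were each led by 1 gene. Slc4a3, a chloride-bicarbonate exchanger of heart and brain, was at 93.1 ± 6.42 FPKM and took 79.8% ± 1.62 of the bicarbonate transporters. Car14, a membrane carbonic anhydrase, was at 114 ± 7.12 FPKM and Car4, another membrane form, at 21.5 ± 2.93. Aqp1, the water channel of capillary endothelium, was at 232, 284, 238, 214 and 226 FPKM. Aqp6, known from kidney collecting duct, was the second aquaporin at 23.6, 22.5, 17.5, 19.03 and 15.9 FPKM. Aqp1 was highest in Sham 2, Aqp6 was lowest in Sham 5, and the 2 genes did not overlap. Aqp7, which also carries glycerol, was at 10.3 ± 2.46 FPKM and Aqp8 at 3.02 ± 0.831. Of the zinc importers, Slc39a7 was at 38.8 ± 1.798 and Slc39a1 at 27.7 ± 1.73 FPKM. Abcb8, Abca8a and Abcb10 led the A and B subfamilies of ABC transporters at 51.6 ± 2.51, 29.2 ± 1.89 and 19.5 ± 1.44 FPKM.

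Calcium channels had 1 main pore, and 2 sodium channel genes of other tissues were low. The skeletal Scn4a was at 6.04, 3.95, 4.01, 4.48 and 5.104 FPKM and Scn7a at 6.61 ± 0.804. Scn4a was highest in Sham 1. Cacna1c took 90.6% ± 0.739 of the calcium channel pores, with the T-type Cacna1g at 3.15 ± 0.241 FPKM. The partner subunits Cacna2d1 and Cacnb2 were at 37.8 ± 3.03 and 29.04 ± 3.23 FPKM.

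Potassium channels were spread over more genes. Among voltage-gated pores the highest was Kcng2, a subunit that is silent on its own, at 71.6, 77.3, 64.7, 55.9 and 73.8 FPKM. Its lowest mouse was Sham 4. Kcnh2 and Kcnq1, which carry the rapid and slow delayed rectifier currents, were at 31.2 ± 4.85 and 19.3 ± 1.93 FPKM. Kcnd2 was 2.804-fold above Kcnd3 (2.36 to 3.27-fold over the mice), both of which carry the transient outward current, and their partner Kcnip2 was at 128 ± 8.21 FPKM. Kcnj11, the pore of the cardiac ATP-sensitive channel, was at 50.3 ± 1.72 FPKM, 2.14-fold above Kcnj8, the pore of the vascular form. Kcnj3 and Kcnj5, which form the acetylcholine-gated channel, were at 26.8 ± 1.89 and 24.95 ± 3.08 FPKM. Kcnj2 and Kcnj12, which carry the inward rectifier current, were at 19.3, 13.1, 11.6, 13.6 and 17.1 and at 11.1, 11.8, 10.4, 8.64 and 10.2 FPKM. Kcnj2 was highest in Sham 1, Kcnj12 was lowest in Sham 4, and the ranges overlapped. Kcnk3, a leak channel, took 95.1% ± 0.151 of its family at 86.6 ± 5.83 FPKM.

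Pacemaker channels and connexins were dominated by the ventricular genes. Hcn2 was at 14.98 ± 0.925 FPKM and took 79.2% ± 2.58 of the HCN family, while Hcn4, the main pore of the sinus node, was at 2.003 ± 0.517. Gja1, connexin 43, the gap junction protein of working ventricular muscle, was at 371, 312, 352, 319 and 304 FPKM. Gja5, connexin 40 of atria, conduction system and arteries, was at 3.11, 2.42, 3.86, 3.69 and 2.21 FPKM, 108-fold lower. Gja1 was highest in Sham 1 and Gja5 in Sham 3. Gjc1 and Gja3 were at 14.8 ± 1.52 and 12.7 ± 1.05 FPKM. Trpm7 led the TRP channels at 14.8 ± 1.71 FPKM and Ano10 the chloride channel list at 32.7 ± 2.92.

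Receptors of catecholamines, acetylcholine and peptides stood far below the structural genes. Adra1b and Adra1a, the alpha-1 receptors of cardiomyocytes, were at 13.4, 12.8, 16.6, 14.4 and 14.2 and at 8.98, 8.33, 6.85, 8.19 and 4.99 FPKM. Adrb1, the main beta receptor of heart muscle, was at 12.5, 10.8, 9.29, 9.02 and 12.7 FPKM. The 2 alpha-1 receptors did not overlap, and Adrb1 was highest in Sham 1 and Sham 5. Chrm2, the muscarinic receptor of heart, was at 44.4 ± 4.29 FPKM and took 99.4% ± 0.275 of its family. Agtr1a, the type 1 angiotensin receptor, was at 30.9 ± 2.59 FPKM, with Agtr2 and Agtr1b listed at 0. Ednra was 2.87-fold above Ednrb by the means, but this ratio varied from 1.71 to 4.498 over the mice. Npr2, the receptor of C-type natriuretic peptide, was at 23.3 ± 1.44 FPKM, Npr1, the receptor of atrial and brain natriuretic peptide, at 9.496 ± 0.848 and the clearance receptor Npr3 at 3.36 ± 0.292.

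Receptors of growth factors and metabolic hormones named here ranged from 1.34 FPKM of Erbb4 to 124 FPKM of Adipor1. Insr, the insulin receptor, was at 26.8 ± 1.77 FPKM and Igf1r at 4.09 ± 0.5498, 6.56-fold lower, while Igf2r, which clears IGF2 and sorts lysosomal enzymes, was at 47.2 ± 1.71. Adipor1 was at 124 ± 4.88 FPKM and Adipor2 at 33.3 ± 3.22. Kdr, the main endothelial receptor of VEGF, was at 45.9 ± 2.25 FPKM, Flt1 at 23.5 ± 1.77, and Eng, an endothelial co-receptor of the TGF-beta family, at 57.8 ± 6.96. Il6st, the shared gp130 chain, was at 46.1 ± 2.89 FPKM and Il11ra1 at 31.9 ± 3.07. Of the ErbB receptors, Erbb3 was at 4.55 ± 0.636 and Erbb2 at 4.06 ± 0.402 FPKM, with overlapping ranges. The neuregulin genes Nrg4 and Nrg1, which encode ligands of this receptor family, were both under the threshold at 0.498 ± 0.144 and 0.274 ± 0.228 FPKM.

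Downstream of these receptors, Gnas, the stimulatory G protein alpha subunit, was at 683 ± 37.9 FPKM and the inhibitory Gnai2 at 119.9 ± 6.52. Adcy6 and Adcy5, the main cardiac adenylyl cyclases, were at 73.4 ± 8.92 and 35.1 ± 1.45 FPKM and took 55.3% ± 2.45 and 26.6% ± 1.29 of the family. Phosphodiesterases were divided more evenly, with Pde7a at 26.5 ± 4.34, Pde3a at 24.5 ± 3.58, Pde2a at 20.1 ± 2.62 and Pde4a at 17.2 ± 2.03 FPKM. Adrbk1, which encodes the receptor kinase GRK2, was at 26.6 ± 0.992 FPKM. Nos3, endothelial nitric oxide synthase, was at 12.03 ± 0.978 FPKM and Nos2, the inducible form, at 4.47, 5.14, 5.95, 4.73 and 5.72 FPKM. Nos2 was highest in Sham 3 and lowest in Sham 1. Among small heat shock proteins, Hspb7 was at 1661 ± 123, Cryab at 1199 ± 25.3 and Hspb6 at 837 ± 79.4 FPKM.

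Nuclear receptors of metabolism were led by Esrra, the oestrogen-related receptor that drives mitochondrial genes, at 69.2 ± 3.9996 FPKM, 4.82-fold above Esrrg. Rxrg, a retinoid X receptor of striated muscle, was at 51.3, 51.5, 65.96, 62.02 and 51.9 FPKM, above Rxrb at 22.4 ± 1.15 and Rxra at 19.5 ± 1.04. Rxrg was highest in Sham 3 and Sham 4. Ppara, which drives fatty acid oxidation, was 2.3001-fold above Pparg, the adipocyte form (17.6 ± 0.779 and 7.64 ± 1.13 FPKM). Ppargc1a, their coactivator, was at 20.9 ± 2.51 FPKM. Thra was 5.75-fold above Thrb, and Nr3c1, the glucocorticoid receptor, 2.91-fold above Nr3c2, the mineralocorticoid receptor (19.1 ± 2.26 and 6.57 ± 1.58 FPKM). Thra overlaps Nr1d1 in the annotation, and the sources used here do not say whether counting used strand, so these 2 values may share reads. The same holds for 103 of the 382 genes named here, which overlap another gene of the table. The oestrogen receptor Esr1 was at 0.138 ± 0.0336 FPKM.

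Cardiac transcription factors were members at moderate levels. Nkx2-5 was at 59.4 ± 11.4 FPKM, Gata4 at 51.1 ± 3.03 and Gata6 at 31.7 ± 3.597, a ratio of 1.47 to 1.79 over the mice. Mef2a and Mef2d were at 44.6 ± 4.47 and 42.2 ± 2.803 FPKM with overlapping ranges, and Mef2c, the form of the early heart, was 3.19-fold under Mef2a. Tbx20 was 2.99-fold above Tbx5. Hand2 was at 39.6 ± 8.76 FPKM with Hand1, a factor of the embryonic left ventricle, listed at 0. Irx4, a ventricular Iroquois factor, was at 18.6 ± 2.02 FPKM and Tead1 at 26.9 ± 2.91.

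Secreted factors were headed by the natriuretic peptides that muscle releases on stretch. Nppa was at 826, 1309.6, 1175, 1474 and 1809.8 FPKM and Nppb at 404, 616, 461, 588 and 623 FPKM. Both were lowest in Sham 1 and highest in Sham 5. Vegfb was at 266 ± 20.2 FPKM and Vegfa at 146 ± 9.52. Fgf1, an acidic fibroblast growth factor, was at 57.1 ± 4.85 FPKM, and Fgf13, an intracellular partner of sodium channels, at 29.6 ± 2.03. C1qtnf9, an adiponectin paralogue secreted by heart and fat, was at 33.3 ± 4.19 FPKM, while Adipoq itself was at 0.529 ± 0.151. Among basement membrane genes, Lamb2 was at 133 ± 9.13, Col4a1 at 68.5 ± 13.7 and Col4a2 at 62.3 ± 12.2 FPKM. Among fibrillar collagens, Col3a1 was at 44.6 ± 11.98 and Col1a2 at 32.6 ± 3.201 FPKM, with overlapping ranges. Itga7, the laminin receptor of muscle, led the integrin alpha chains at 67.6 ± 5.37 FPKM.

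The tissue label was checked against markers of 25 cell types. Markers of the main cells of the ventricular wall were members, and most markers of other tissues were low. Of 16 cardiomyocyte markers, 15 were members, and the exception was Myh6, whose listed 0 is not used. The median of these 15 was 4594 FPKM. All 14 endothelial markers, all 12 fibroblast markers and all 8 pericyte markers were members, with medians of 57.9, 28.8 and 19.1 FPKM. Of 14 macrophage and monocyte markers, 12 were members (median 8.08 FPKM over the 14), and of 8 smooth muscle markers, 6 (median 13.2 FPKM over the 8). No share of cells was estimated from these values, and several listed genes, such as Cd36, Des, Tbx20 and Abcc9, are also transcribed in cardiomyocytes.

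Vascular and stromal cells had clear leading genes. Fabp4, the fatty acid binding protein of capillary endothelium and adipocytes, was at 1119.9, 1339, 1141, 1182 and 1167 FPKM, highest in Sham 2, and Ly6c1 and Cav1 were at 189 ± 33.03 and 161 ± 20.2 FPKM. Gsn, gelsolin, was at 609 ± 49.1 FPKM, Dcn, decorin, at 438 ± 22.3 and Dpt, dermatopontin, at 67.5 ± 2.97. Among pericyte markers, Abcc9, the partner of Kcnj8 and Kcnj11 in ATP-sensitive channels, was at 105 ± 9.29 FPKM and Rgs5 at 101 ± 11.3. Acta2 and Smtn of smooth muscle were at 77.2 ± 10.3 and 56.9 ± 6.35 FPKM. Other genes of that list were far lower: its median was 13.2 FPKM, its lowest gene was at 0.743 FPKM, and 6 of its 8 genes were members. Lyz2, lysozyme of myeloid cells, was at 138 ± 18.7 FPKM, and the complement genes C1qc, C1qb and C1qa of resident macrophages lay together at 37.9 ± 3.997, 37.6 ± 1.22 and 37.5 ± 2.07 FPKM.

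Markers of lymphoid cells were at the edge of the data. None of the 7 T cell and 6 NK cell markers in the table was a member, and 1 of 5 B cell markers was (Cd79b at 1.48 ± 0.754 FPKM). The defining T cell genes Cd3e and Cd8a were at 0.267 ± 0.154 and 0.172 ± 0.0937 FPKM. Of the mast cell list only Kit was a member, at 1.27 ± 0.148 FPKM. The neutrophil genes S100a9 and S100a8 were at 3.48, 7.12, 8.52, 12.95 and 6.06 and at 2.496, 6.63, 8.73, 11.7 and 1.57 FPKM, both highest in Sham 4. Red cell transcripts were present, with Hbb-bt, a beta globin gene, at 100.4, 97.8, 130.0, 94.03 and 71.1 FPKM, highest in Sham 3 and lowest in Sham 5. Alas2, the first enzyme of haem synthesis in red cell precursors, was at 16.3 ± 3.02 FPKM, while Slc4a1 of the same list was at 0.0508. The platelet gene Pf4 was at 24.997 ± 4.02 FPKM. The rest of the platelet list was far lower: 3 of its 6 genes were members, and its median was 1.15 FPKM. Hba-a1, Hba-a2, Hbb-b1 and Hbb-bs occur only in joined entries.

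Markers of neighbouring tissues were few and low. The atrial list summed to 1348 FPKM, nearly all of it Nppa, which the ventricle also makes, and Stard10 was next at 20.4 ± 1.83 FPKM. Sln and Mybphl were at 0.542 and 0.468 FPKM and Bmp10 was listed at 0. Upk3b, a marker of mesothelium, was at 4.03, 1.4001, 0.997, 0.322 and 4.58 FPKM, with Sham 1 and Sham 5 the 2 highest. The same 2 mice were highest for the atrial Myl7, but not for the atrial markers Nppa, Myl4 and Sln. Of the adipocyte list Car3 and Cfd were members, at 2.75 ± 0.825 and 1.61 ± 0.937 FPKM, while Lep and Plin1 were at 0.05898 and 0.1805. Of the brown adipocyte list, Cidea and Ppargc1a were members, at 24.6 ± 1.01 and 20.9 FPKM, although Ucp1, Zic1 and Elovl3 lay at or under 0.0213 FPKM. No airway or alveolar marker passed 0.0647 FPKM. The thymocyte genes Rag1, Dntt and Ptcra were listed at 0, while Cd1d1 of the same list was a member at 2.61 FPKM and Themis was at 0.0533. The conduction system list was led by Tbx3 at 4.37 ± 0.982 FPKM, and Isl1, a factor of the sinus node, was listed at 0.

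Spread between mice was small for most members. The SD of log2(FPKM + 0.5) had a median of 0.14 over members, with the middle 50% between 0.10 and 0.20. It was 0.214 among members of 1 to 2 FPKM and 0.0928 among those of at least 1000 FPKM, where the median coefficient of variation was 6.29%. The highest mouse was over 2 times the lowest for 659 members (5.68%). The 10 steadiest genes of at least 5 FPKM included Fh1, Klhdc2, Scyl2, Arpc5l, Pgm2, Hsd17b4, Ubl5, Ckmt2 and Clic4. Fh1, fumarase of the citric acid cycle, was at 416, 413, 419, 415 and 419 FPKM. The highest mouse exceeded the lowest by a few percent at most in each of these 10.

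Of 14 genes often used as references, none had an SD above 0.5, against 2.04% of all members, so this count alone says little. The median SD of the 14 was 0.0935. It was 0.118 among all members of 10 to 100 FPKM and 0.0988 among those of 100 to 1000 FPKM. Actb and B2m were the least even of those named here, at 222, 232, 246, 193 and 141 and at 309, 196, 199, 212 and 188 FPKM in Sham 1 to Sham 5. Sham 5 was lowest for Actb, and Sham 1 was the highest for B2m, a subunit of MHC class I. Gapdh was at 1675, 1497, 1576, 1506 and 1529.7 FPKM and Ppia at 236 ± 7.78.

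At the other end, 236 members had an SD above 0.5. Of the 31 small RNA members, 29 were among them. Such transcripts are very short, and FPKM divides by length, so single reads give large values. Mir133a-2 was listed at 0 in 4 mice and at 385 FPKM in Sham 5, and Snora34 at 0 in 2 mice and at 495 FPKM in Sham 4. Entries of at least 5 FPKM listed at 0 in 1 mouse were Snora64, Snord22, Snora43 and Snord15b, and those listed at 0 in 2 or 3 were Snora34, Snora7a, Snora70, Snora17, Snora52, Snora16a and Rnu12. In Mir133a-2, Mir1940,Snora47, Snora44, Mir7-1, Snora2b, Snora41, Snora15, Mir486, Mir1199 and Snora3 a single mouse carried the whole mean. Of 33 members listed at 0 in at least 1 mouse, 25 were such entries. Among gene-named members of at least 5 FPKM, the 15 least even were Fosb, Nr4a3, Thbs1, Atf3, Apold1, Nr4a1, Irs2, Errfi1, Sik1, Cxcl1, Egr3, Zbed6, Socs3, Cdkn1a and Fos.

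Many of these are immediate early genes, whose transcription starts within minutes of a stimulus and needs no new protein. An SD above 0.5 was found for 18 of 19 genes of this list, against 2.04% of all members. Fosb, a partner of Jun in the AP-1 factor, was at 23.5, 82.5, 79.96, 21.7 and 2.504 FPKM in Sham 1 to Sham 5. Fos, the best known gene of the class, was at 100.5, 265, 267, 121 and 36.3 FPKM. Atf3, a stress-induced factor, was at 24.5, 96.8, 110.2, 21.3 and 3.94 FPKM. Sham 2 and Sham 3 were the 2 highest and Sham 5 the lowest in each of them. The orphan nuclear receptor Nr4a1 was at 80.2, 219, 233, 92.2 and 15.7 FPKM and its relative Nr4a3 at 0.707, 13.1, 13.7, 1.51 and 0.337 FPKM. The order of mice was the same for both.

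The order with Sham 2 and Sham 3 highest and Sham 5 lowest held for 15 of the 19 immediate early genes and for 3.4% of all members. This order was read from the values of the same genes, so the counts are a description and no test. Among the 236 members with an SD above 0.5, 74 had this order. They took in Thbs1, the matricellular protein thrombospondin 1, at 5.67, 59.6, 66.9, 19.4 and 3.09 FPKM, Apold1, an endothelial gene, at 29.5, 97.1, 96.2, 33.5 and 6.08 FPKM, and Irs2, an adaptor of the insulin receptor, at 1.98, 14.3, 20.99, 3.07 and 1.78 FPKM. The chemokine Cxcl1 was at 8.03, 43.1, 44.8, 18.8 and 6.12 FPKM and Socs3, an inhibitor of cytokine signalling, at 4.8996, 24.3, 21.1, 7.79 and 3.37 FPKM. Both were highest in Sham 2 and Sham 3. Sik1 and Errfi1, feedback regulators of kinase signalling, had the same order, with Errfi1 at 20.96, 84.03, 92.8, 40.3 and 10.04 FPKM. Egr3, a zinc finger factor, was at 4.01, 11.9, 9.96, 5.09 and 0.936 FPKM.

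Upstream sequences of 2 of these genes are shown because both carry TGACG, the core of the element bound by CREB and ATF factors, close to the transcript start in the promoter table. They are from the RefSeq promoter table (GRCm38.p6), read 5′ to 3′ on the strand of the gene and ending at the base before that start, with TGACG and TATAAA in capitals.
Fos, chr12:85473740-85473889, plus strand: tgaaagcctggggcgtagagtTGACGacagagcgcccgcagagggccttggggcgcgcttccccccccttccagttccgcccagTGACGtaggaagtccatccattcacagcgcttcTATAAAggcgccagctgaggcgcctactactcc
Fosb, chr7:19310046-19310195, minus strand: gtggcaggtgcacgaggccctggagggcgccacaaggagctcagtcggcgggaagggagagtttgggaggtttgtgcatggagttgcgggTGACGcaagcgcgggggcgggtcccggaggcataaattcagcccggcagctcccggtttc
In Fos the matches start 129 and 66 bases before the start and TATAAA 33 bases before it, and in Fosb the match starts 60 bases before. For Fosb the start in the promoter table lies 73 bases inside the gene as RefSeq annotates it, so the match is within the annotated gene. Searched on both strands over the 250 upstream bases, TGACG was found in 10 of 14 immediate early genes with a window in the table, and in 31.2% of members' genes with one. TATAAA was found in 3 of the 14, and in 8.06% of members' genes. A match describes the letters only, and whether these sites were bound was not measured.

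A second set of uneven genes belongs to the circadian clock, the feedback loop in which CLOCK and ARNTL (BMAL1) switch on their own repressors over the day. Of 13 clock genes, 9 had an SD above 0.5. Dbp, an output factor driven directly by the loop, was at 121, 141, 30.3, 28.6 and 111 FPKM in Sham 1 to Sham 5. Ciart, listed as Gm129, a repressor in the loop, was at 16.999, 24.5, 4.19, 3.19 and 14.7 FPKM. Per3, another repressor, was at 15.7, 15.997, 5.77, 5.88 and 12.9 FPKM. In all 3, Sham 3 and Sham 4 were the lowest. Arntl, the activator, was at 1.05, 0.886, 7.11, 7.44 and 2.66 FPKM. Its partner gene Npas2 was at 0.992, 0.815, 2.69, 3.13 and 1.96 FPKM. In both, the order was turned, with Sham 3 and Sham 4 the highest.

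Sham 3 and Sham 4 were the 2 lowest mice for 8 of the 13 clock genes (Per2, Per3, Cry1, Cry2, Dbp, Tef, Hlf and Ciart), against 12.9% of all members. They were the 2 highest for 4 (Arntl, Clock, Npas2 and Nfil3), against 10.1% of all members. Sham 3 and Sham 4 were singled out from the values of the same genes, so these counts are a description and no test. The exception among the 13 was Per1, at 22.7, 49.3, 38.7, 18.98 and 15.4 FPKM. It was highest in Sham 2 and Sham 3 and lowest in Sham 5, the order of the immediate early genes. Tef, a relative of Dbp, was at 84.3, 79.4, 33.3, 39.9 and 69.4 FPKM, and Nfil3, which represses the same sites, at 4.32, 7.41, 9.38, 8.54 and 6.97 FPKM.

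Upstream sequences of 3 clock genes are shown because they hold the elements of the loop. CACGTG, the E-box bound by CLOCK and ARNTL, and TTATGTAA, a D-box bound by DBP, TEF, HLF and NFIL3, are in capitals, and orientation is as above.
Ciart, chr3:95882229-95882378, minus strand: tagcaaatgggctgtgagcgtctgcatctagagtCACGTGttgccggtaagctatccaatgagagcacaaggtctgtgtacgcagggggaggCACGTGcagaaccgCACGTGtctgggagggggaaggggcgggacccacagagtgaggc
Tef, chr15:81802523-81802672, plus strand: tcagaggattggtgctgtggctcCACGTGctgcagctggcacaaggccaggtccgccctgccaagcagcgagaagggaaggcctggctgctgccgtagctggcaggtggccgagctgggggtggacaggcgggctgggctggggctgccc
Per3, chr4:151044666-151044885, minus strand: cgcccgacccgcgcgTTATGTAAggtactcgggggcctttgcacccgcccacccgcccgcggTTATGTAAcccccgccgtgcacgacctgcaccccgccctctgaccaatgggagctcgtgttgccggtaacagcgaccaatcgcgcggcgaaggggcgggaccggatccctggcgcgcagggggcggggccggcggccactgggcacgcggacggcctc
Ciart holds CACGTG 3 times, starting 116, 58 and 44 bases before the start, the window of Tef shown holds it once, 127 bases before, and Per3 holds TTATGTAA 2 times, 205 and 158 bases before. The start in the table lies 29 bases inside the annotated gene for Ciart and 42 for Per3, nearer to the start than any of these matches. CACGTG reads the same on both strands. It was found in the 250 upstream bases of 4 of 12 clock genes with a window (Ciart, Cry1, Per1 and Tef), and in 10.1% of members' genes with one. TTATGTAA, searched on both strands, was found in 1 of the 12 and in 0.527% of members' genes.

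**Figure D4:**
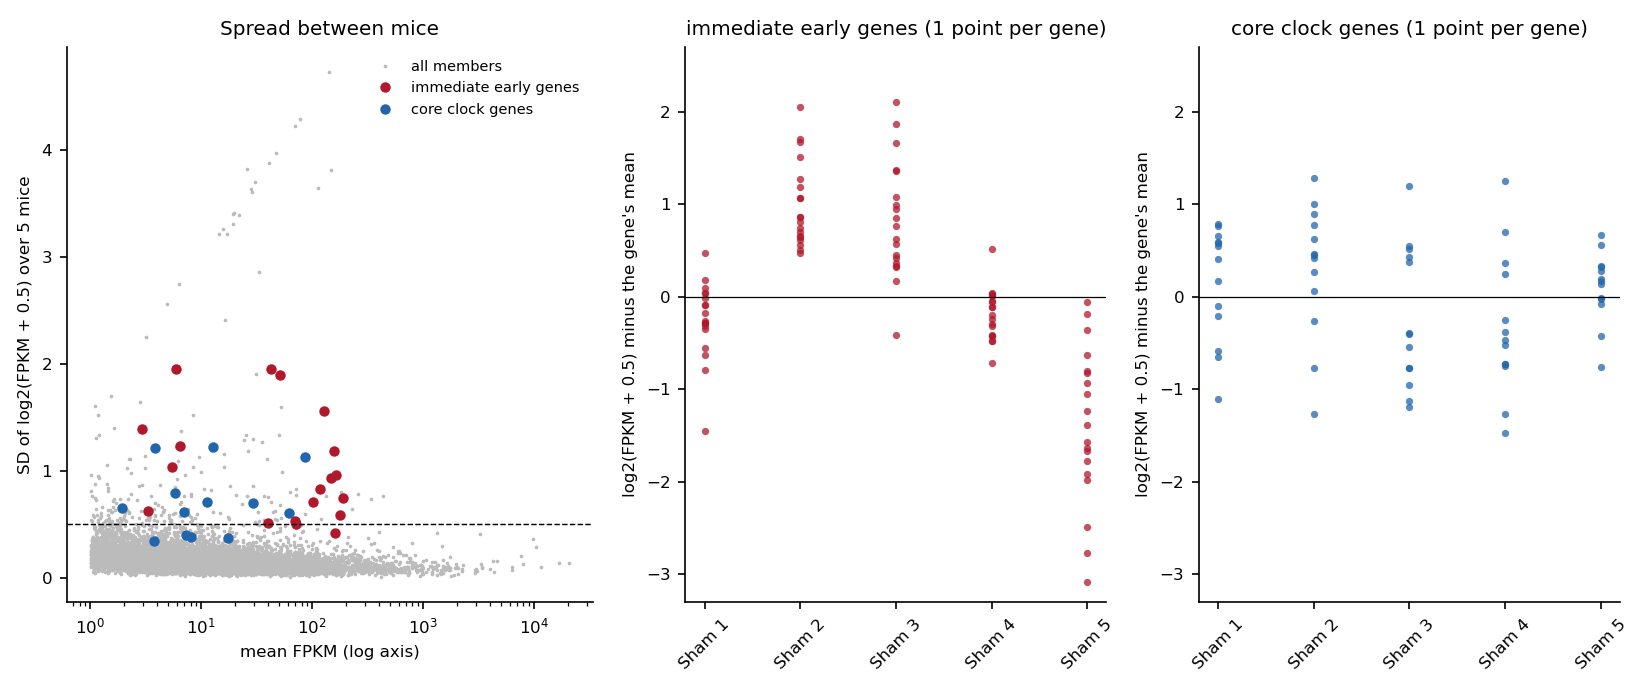
Left, SD of log2(FPKM + 0.5) over 5 Sham mice against mean FPKM (log axis) for all members (grey), immediate early genes (red) and clock genes (blue), with a dashed line at 0.5. Middle and right, log2(FPKM + 0.5) minus the gene's mean over the mice, 1 point per gene in each mouse: immediate early genes lie highest in Sham 2 and Sham 3 and lowest in Sham 5, and clock genes part into 2 sets in Sham 3 and Sham 4.

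Other uneven genes had orders of their own. Cdkn1a, the cell cycle inhibitor p21, was at 9.26, 21.7, 55.9, 37.5 and 8.12 FPKM, highest in Sham 3 and Sham 4, like Pdk4. Zbtb16, a zinc finger factor that glucocorticoids induce, was at 11.01, 20.4, 7.84, 13.1 and 38.1 FPKM, highest in Sham 5. Zbed6, a transcription factor gene within Zc3h11a, was at 7.82, 6.64, 6.84, 7.51 and 0.666 FPKM. Zc3h11a, in contrast, was not low in Sham 5, at 23.999, 24.98, 24.9, 26.2 and 26.5 FPKM. Reads shared between these overlapping genes cannot be told apart in the deposited values. Of the metallothioneins, Mt1 was at 359.9 ± 86.1 and Mt2 at 50.7 ± 16.3 FPKM.

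A single mouse stood apart from the other 4, by Dixon's gap ratio for 5 values (above 0.71), for 7.49% of members (868), where chance gives about 5%. Sham 1 was that mouse for 442 of them (252 high and 190 low) and Sham 5 for 195 (67 high and 128 low), against 66 to 84 for each of the other 3. Compared with the mean of the other mice, the median member of the 20% with the lowest transcript GC differed by 0.1499 (log2) in Sham 1. In Sham 2 to Sham 5 it differed by -0.0637, -0.00463, 0.0302 and -0.0994. For the 20% with the highest GC, Sham 1 to Sham 5 differed by -0.0371, 0.0749, -0.0157, -0.08496 and 0.0767. Over all members the median in Sham 1 was higher by 0.0311. The part of GC content in these differences was not tested. Without Sham 1, the median SD of members was 0.115, and the 10 first entries held 17.8% of the summed FPKM. Without it, 18 immediate early genes and 9 clock genes had an SD above 0.5, beside 18 and 9 with all 5 mice.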

How the data were processed

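Left ventricle RNA of 5 Sham mice was read as mRNA libraries (TruSeq, single reads), per the labels' protocols. The deposited table gives FPKM per gene, made by the authors. The submitters' processing notes name STAR 2.4.0f1, Cufflinks 2.1.1, Cuffdiff 2.1.1, mm10 and hg19, with no role stated. Read depth, the multi-read rule and the use of strand are not given in the sources used here. The 5 other libraries were not used. The labels name 5 separate mice, whose numbers are names only.

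Members had a mean of at least 1 FPKM. The members and all lists (76 pairs, 110 families, 25 marker lists, categories) were chosen with earlier results of these data known. Spread is the SD of log2(FPKM + 0.5). Pairs were compared by ranges over the mice and an exact two-sided sign-flip permutation test on log2 ratios with Benjamini-Hochberg adjustment. Outlying mice were sought with Dixon's gap ratio above 0.71, on log2 values for genes and on summed FPKM or shares for lists. The gap ratio, the SD and the overlap of ranges were tested on simulated data. Python 3.11.15, numpy 2.4.6, pandas 2.3.3, scipy 1.17.1 and matplotlib 3.10.9 were used. Transcript length and GC were taken from GENCODE M21, which matched 11380 members (98.2%). Gene positions and promoter sequences come from RefSeq (GRCm38.p6).

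Named were the 20 most abundant entries, all genes of the pairs, up to 4 highest genes of a described family or marker list with its listed-at-0 genes, the 15 most and 10 least variable gene-named members of at least 5 FPKM, 3 entries on each side of the threshold, and members of at least 5 FPKM at 0 in a mouse. Other names, among them the fast myosin heavy chains, further clock genes, low markers of other tissues, Myl7, Upk3b, B2m, Mt2, Zbtb16, Zc3h11a and Esr1, were chosen after their values were seen. Alternatives were other thresholds, scalings and pseudocounts, gene-named entries only, and leaving out each mouse. Some items within this rule are not reported here.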

Additional observations from a re-analysis of the deposited data

Results flagged for a closer look

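In 43 of 378 results, 1 mouse lay far from the other 4 by Dixon's gap ratio for 5 values. Chance marks about 1 in 20 groups, and over all members the share was 7.49%. The count is not to be read against either, since 14 of the results are small RNA entries named because they were at 0 in some mice, 10 of them with the other 4 mice at 0, and Zbed6 was named for its spread. Sham 1 was the mouse that lay apart in 18 of the 43 results. Values are FPKM of that mouse against the lowest and highest of the other 4.

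In Sham 1, Tnnt2 was low at 6222 against 10257 to 11311, Tpm1 at 7218 against 10636 to 11503, Tnni3 at 5951 against 7751 to 8606, Mb at 14255 against 16876 to 17994 and Gsn at 524 against 614 to 642, while Actc1, Pln and Fhl2 were highest in this mouse. The summed cardiomyocyte markers, which include Tnnt2, Tnni3 and Mb, were low with them (79750.1 against 92097 to 96817). In the same mouse B2m was high at 309 against 188 to 212, Atp1b1 at 162 against 123 to 130.1, Tead1 at 32.1 against 25.03 to 25.9, Prdx2 at 547 against 523 to 528 and, by little, Hsd17b4 at 53.5 against 52.2 to 52.5. As percentages of the summed FPKM, oxidative phosphorylation was high in Sham 1 (16.7 against 15.4 to 15.7), and the thick and thin filaments were low (11.1 against 13.2 to 13.8). So were the first 10 (15.3 against 17.5 to 18.2), 50 (30.9 against 32.6 to 33.2) and 100 entries (40.2 against 41.7 to 42.2).

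In Sham 5, Zbed6 was low at 0.666 against 6.64 to 7.82 and Acaca at 0.788 against 1.1001 to 1.199. Mfn2 was high there at 299 against 265 to 270.3, Mdh2 at 1505 against 1397 to 1419, Got2 at 364 against 319.6 to 330.1 and Gjc1 at 17.5 against 13.7 to 14.3. In Sham 4, Hcn4 was low at 1.12 against 2.02 to 2.44, Npr1 at 8.04 against 9.698 to 10.3 and Fxyd1 at 641 against 685 to 701, and Pbld2, which passed the threshold through this mouse, was high at 1.43 against 0.852 to 0.9398. Insr was low in Sham 3 at 23.8 against 26.997 to 28.3. Slc39a7 was high in Sham 2 at 41.98 against 37.5 to 38.4. The airway and alveolar markers summed higher in Sham 3 (0.388 against 0 to 0.0667), far under the threshold for a member.

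The other results were small RNA entries. Mir133a-2 was high in Sham 5 at 385 against 0, as were Mir486 at 96.2 against 0, Snora2b at 153 against 0 and Snora41 at 139.5 against 0. In Sham 2, Mir1199 was at 77.7 against 0, Snora15 at 97.8 against 0, Snora3 at 72.3 against 0 and the joined Mir1940,Snora47 at 349 against 0. Mir7-1 was high in Sham 3 at 204 against 0 and Snora44 in Sham 1 at 236 against 0. Snora64 was low in Sham 1 at 0 against 90.4 to 267, Snora43 in Sham 3 at 0 against 24.6 to 88.3, and in Sham 4 Snord15b at 0 against 18.7 to 22.3 and Snord22 at 0 against 95.05 to 196.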

How the results depend on the processing

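No paired analysis was possible because only 1 group was used and its mice share no numbers with another group. Under the alternatives run, the number of members ranged from 10432 (at least 2 FPKM) to 12544 (at least 0.5 FPKM), and the pairs with the first partner higher and no overlap from 52 to 65. The share of the first 100 entries was 42.8% with gene-named entries only, where joined and small RNA entries are left out of the sum. The median SD was 0.124 for members of at least 5 FPKM, and leaving out each mouse in turn gave 0.115 to 0.142, the lowest without Sham 1. Leave-one-out also gave 14 to 18 immediate early genes and 8 to 9 clock genes with an SD above 0.5, an alternative chosen after seeing the data, with 14 immediate early genes without Sham 2 or without Sham 5. Pseudocounts of 0.1 and 1 moved the log2 ratio of 16 pairs, most with a partner near 0, by more than its SD between mice, and turned no direction. Read depth is unknown, so no counting error is given for low values, and values under about 0.2 FPKM rest on few reads.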
